A study of Mus musculus with 6 samples.

Results

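The genes described here encode the receptors of vascular endothelial growth factor (VEGF) and the angiopoietin system, namely Flt1, Kdr, Flt4, Nrp1, Nrp2, Angpt1, Angpt2, Tek, Tie1 and Vegfc. They were chosen by symbol, and all 10 were found among the 32285 genes of the 6 deposited count matrices. The matrices come from single-nucleus RNA sequencing of brainstem (pons with medulla) taken from C57BL6/J males, with 10x Genomics droplets that count unique molecular identifiers (UMIs) near the 3' end of each transcript. Mice of the exposed group lived under chronic intermittent hypoxia (CIH) for 21 days, from postnatal day 22 to 43. In each cycle nitrogen ran for 60 seconds until oxygen stood at 4.5 to 5%, air brought it back to 21% within at most 5 minutes, and a day had 80 cycles over 8 hours. The other group was kept in room air (normoxia) over the same postnatal days, and mice of both groups were weaned at postnatal day 21. Each group had 3 libraries. How many mice made up a library is not given in the labels. The p-values between the groups therefore reflect library-to-library spread, which may be technical. Those between classes of nuclei reflect the spread that remains once library differences are taken out.

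VEGF ligands act through receptor tyrosine kinases on vessel cells. Kdr (VEGFR2) carries most of the growth signal, Flt1 (VEGFR1) binds VEGF-A tightly and also exists as a soluble form that traps it, and Flt4 (VEGFR3) is the receptor of Vegfc and is best known from lymphatic vessels. The neuropilins Nrp1 and Nrp2 are co-receptors for VEGF and for class-3 semaphorins and occur on neurons and macrophages as well as on vessels. The angiopoietins act on the receptor Tek (Tie2), which Angpt1 activates and Angpt2 often blocks, while Tie1 is a partner of Tek without a firmly known ligand of its own. Astrocytes, mural cells and fibroblasts of the vessel wall are among the sources of such ligands in brain.

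Of 43836 barcodes, 40139 showed 500 or more genes and no more than 5% mitochondrial UMIs, with 26542300 to 46348273 UMIs per library in those nuclei. Each nucleus was placed in a class by counting how many marker genes of each class it showed. None of the 10 genes served as a marker, and 35190 nuclei were placed. Endothelial genes kept out of the gates (Erg, Cdh5, Ushbp1, Sox17 and Itm2a) checked the endothelial class, and Erg, Sox17 and Cdh5 are given here. Erg was at 312 CPM (UMIs of the gene scaled to the UMI sum of its class) in endothelial nuclei and at 0.829 in neurons, and Sox17 at 131 and 0.199. Cdh5 was at 166 CPM in endothelial and at 137 in fibroblast nuclei. Held-out genes of the fibroblast class are not given here. There were 871 endothelial, 192 mural, 247 fibroblast, 65 perivascular macrophage, 788 astrocyte, 400 oligodendrocyte precursor, 12272 oligodendrocyte, 1285 microglial and 19035 neuronal nuclei. The CIH libraries gave 89, 72 and 503 endothelial nuclei, the normoxia libraries 48, 43 and 116. Many fibroblast nuclei only just met the class rule, with 3 markers or a lead of 2 over the next class. They were 21 of 38, 15 of 34 and 51 of 99 in the CIH libraries. In the normoxia libraries they were 10 of 28, 9 of 15 and 23 of 33. Mural nuclei (down to 9 in a library) and perivascular macrophages (down to 4) were too few for the tests, which needed 10 in every library.

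Some libraries stood apart. CIH library 1 and normoxia library 2 had 1563 cell barcodes in common, 33.9% and 21.1% of their barcodes, while no other pair shared more than 38. In a shared barcode CIH library 1 held a median of 7.92 times the UMIs of normoxia library 2, and 792 of the 804 barcodes gated in both libraries fell in the same class. Of the shared barcodes kept in normoxia library 2, 776 were gated as neurons, 118 as oligodendrocytes, 2 as fibroblasts and 0 as endothelial or mural nuclei. The main comparisons of CIH with normoxia are therefore given with and without them. CIH library 3 had the highest median mitochondrial share (0.366%, against 0.062 to 0.095% elsewhere) and the most nuclei in no class (9.13%, against 2.59 to 4.66%).

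The promoters of Flt1, Kdr and Tek are shown because these receptors define the vascular pattern described next. The lines below give the 150 bases before the RefSeq start in the GRCm38.p6 assembly, 5' to 3' on the gene's strand. Capitals mark GGAA or its reverse complement TTCC, the core of the sites of ETS factors such as Erg, and TGACGTCA, the cyclic AMP response element. The Flt1 window is chr5:147726012-147726161 on the minus strand, the Kdr window chr5:75978456-75978605 on the minus strand, and the Tek window chr4:94739139-94739288 on the plus strand.
Flt1: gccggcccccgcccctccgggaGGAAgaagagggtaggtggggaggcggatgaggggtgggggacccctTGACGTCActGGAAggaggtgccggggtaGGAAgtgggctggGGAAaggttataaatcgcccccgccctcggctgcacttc
Kdr: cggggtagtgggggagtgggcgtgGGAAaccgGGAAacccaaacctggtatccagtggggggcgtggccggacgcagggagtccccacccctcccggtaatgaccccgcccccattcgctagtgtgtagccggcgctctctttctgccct
Tek: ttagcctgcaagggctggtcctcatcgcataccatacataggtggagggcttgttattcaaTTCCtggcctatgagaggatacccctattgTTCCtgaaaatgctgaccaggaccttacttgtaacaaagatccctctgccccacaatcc
The Flt1 window held 4 GGAA cores and 1 TGACGTCA, and the Kdr and Tek windows held 2 cores each. All 8 of the members with a RefSeq promoter entry had at least 1 core, as did 80.8% of the 32851 promoters in the table on either strand, so the core says little about these genes. TGACGTCA was in 1.36% of all windows and, among the 8 members, in that of Flt1 only. The core of the hypoxia response element, ACGTG, was in 11.2% of all windows and in 0 of the 8 windows of these genes. A match or its absence describes these letters only.

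The receptors Flt1, Kdr, Flt4, Tek and Tie1 were concentrated in endothelial nuclei. Flt1, at chr5:147561604-147726011 in mm10, was at 5119, 4132 and 4045 CPM in the endothelial nuclei of CIH libraries 1 to 3 and at 2350, 3630 and 3339 CPM in those of normoxia libraries 1 to 3. It was found in 94.4% of endothelial nuclei (822 of 871; exact 95% Clopper-Pearson interval 92.6 to 95.8%; library medians of 1169.5 to 1909 UMIs). In oligodendrocytes, which are not known for Flt1 and had library medians of 2116 to 3168 UMIs, the share was 0.896%. After thinning every nucleus to 1000 UMIs, which left out 199 endothelial nuclei and 534 oligodendrocytes, these shares were 92.9% and 0.332%. Mural nuclei were next, at 230 CPM pooled (65 UMIs, exact 95% Poisson interval 178 to 293), with at least 1 UMI in 21.4% of them. Fibroblasts ranged from 0 to 108 CPM between libraries. In all, 80.5% of the 8179 Flt1 UMIs came from endothelial nuclei, which are 871 of 40139 nuclei. These intervals cover counting error only. The counts are taken near the 3' end, so the soluble and the membrane form of Flt1 cannot be told apart here.

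Kdr, at chr5:75932827-75978458, was at 125, 150 and 78.9 CPM in endothelial nuclei of CIH and at 216, 207 and 106 CPM in those of normoxia. No other tested class passed 18.7 CPM in any library, and oligodendrocyte precursors held 0 Kdr UMIs. Kdr showed a UMI in 16.3% of endothelial nuclei, 10.7 to 45.8% by library. Flt4, at chr11:49609263-49652739, was at 23.99 to 46.2 CPM in endothelial nuclei and had 0 UMIs in the mural, fibroblast, astrocyte, oligodendrocyte precursor, microglial and perivascular macrophage nuclei. Neurons held as many Flt4 UMIs as endothelial nuclei did, 69 each, but at 0.572 CPM. These levels rank classes within a gene; they are not corrected for transcript length and do not rank one gene against another.

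Tek, at chr4:94739289-94874976, was at 580, 521 and 546 CPM in endothelial nuclei of CIH and at 284, 539 and 427 CPM in those of normoxia, and showed a UMI in 52.4% of them. Tie1, at chr4:118471191-118490061, was at 216, 182 and 182 CPM under CIH and at 114, 135 and 154 CPM under normoxia, and showed a UMI in 25.8%. Tie1 had 0 UMIs in fibroblast, astrocyte, microglial, perivascular macrophage and oligodendrocyte precursor nuclei, 2 UMIs in mural nuclei and a mean of 0.35 CPM in oligodendrocytes, the next tested class. Tek differed from it by a second, low level in neurons, described below.

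**Figure D1:**
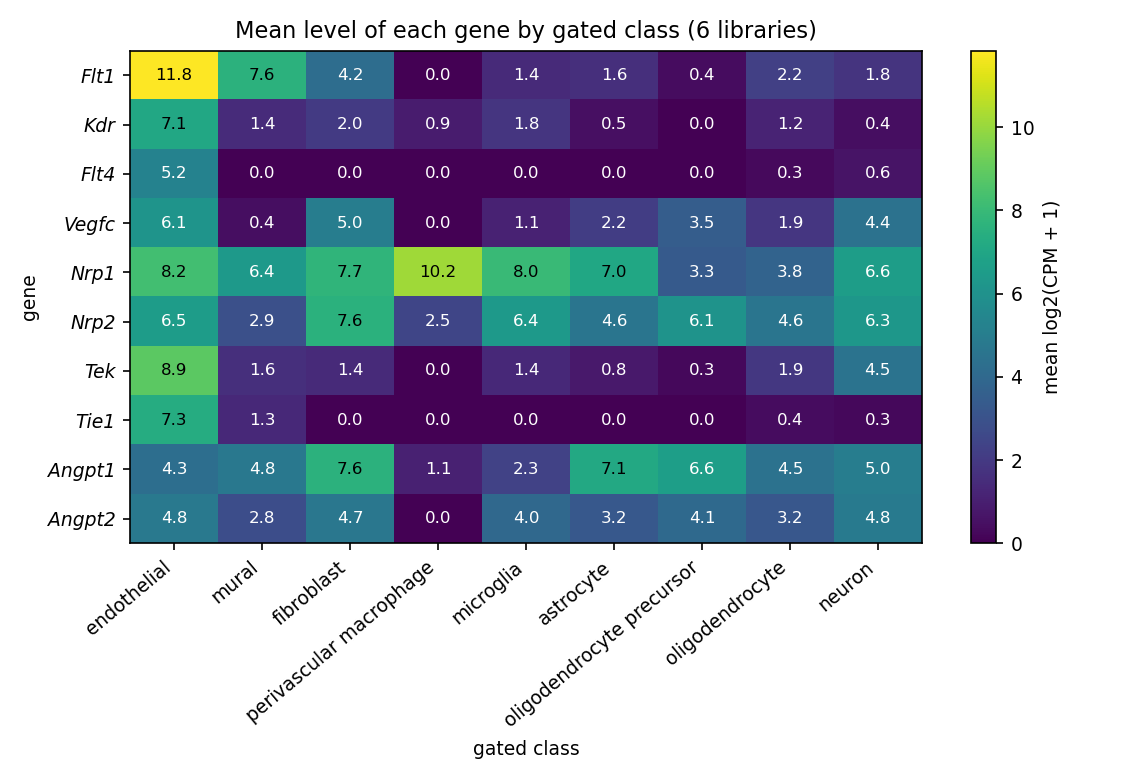
Heat map of the mean log2(CPM + 1) over 6 libraries for each gene (rows) in each gated class (columns). Flt1, Kdr, Flt4, Tek and Tie1 have their highest value in endothelial nuclei, while Nrp1 peaks in perivascular macrophages, and Nrp2 and Angpt1 in fibroblasts.

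The endothelial class was compared with the mean of the other 6 tested classes in edgeR's quasi-likelihood test with library as a term. Of 9 members tested (Flt4 was removed by the filter on low counts), 7 were higher in endothelial nuclei, beside 25.9% of the 8830 genes tested. They were Flt1 (adjusted p = 6.28e-34), Kdr (2.55e-22), Tek (3.47e-35), Tie1 (7.24e-19), Nrp1 (1.44e-16), Vegfc (6.04e-14) and Nrp2 (0.0106). The count filter took the classes as groups, so a gene could enter the test by its level in 1 class alone. For genes low elsewhere, such as Tie1 (mean 164 CPM, 0.35 in the next class) and Kdr (147 and 7.94), a call was thus close to fixed beforehand. The same can hold for Flt1 and Tek. Their p-values and the count of 7 describe the levels above and add no support. Angpt1 was lower there (log2 difference -1.18, SE 0.326, adjusted p = 0.00262), and Angpt2 did not pass (0.50, SE 0.280, adjusted p = 0.148). The call of Nrp2 did not hold without CIH library 1, 2 or 3 (adjusted p = 0.0569, 0.15 and 0.0725) or without the filter on low counts (0.0694). Between neighbouring classes in the order of a gene's mean level, endothelial nuclei lay above the next class in 6 of 6 libraries for Flt1, Kdr, Flt4, Tek and Tie1, with ranges that did not overlap. The exact sign-flip test over 6 libraries cannot go below p = 0.0312, and adjusted over the 60 neighbour pairs its smallest value was 0.156, so 0 pairs passed.

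Within the endothelial class the pooled levels of some genes differed between zones of the vessel tree. Zone markers that exclude these genes gave 33 arterial, 489 capillary and 35 venous nuclei over all 6 libraries, so values are pooled, with exact 95% Poisson intervals and no test. Vegfc, the ligand of Flt4, was at 854 CPM (616 to 1155) in arterial nuclei, 17.2 CPM (10.5 to 26.6) in capillary nuclei and 271 CPM (161 to 428) in venous nuclei. These levels rest on 42, 20 and 18 Vegfc UMIs. Arterial nuclei of 6 of 6 libraries had at least 1, but CIH library 3 held 25 of the 42, in 13 of the 33 arterial nuclei. In CIH library 1 and normoxia library 1 the Vegfc level was higher in venous than in arterial nuclei. Nrp2 was at 587 CPM (417 to 802) in venous nuclei and 61.1 CPM (47.7 to 77.1) in capillary nuclei, and had 0 UMIs in arterial nuclei, which allows up to 75.0 CPM. Nrp1 was low in venous nuclei, at 105 CPM (42.4 to 217) from 7 UMIs. It was at 386 CPM (233 to 603) in arterial and 301 CPM (270.5 to 334.5) in capillary nuclei, whose intervals overlapped. As background, Nrp1 is known as an arterial and Nrp2 as a venous neuropilin. Angpt2 was at 142 CPM (57.2 to 293) in arterial nuclei, from 7 UMIs in 2 libraries, and had 0 UMIs in venous nuclei.

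Tek, Tie1 and Flt1 also had levels in every zone. Tek was at 783 CPM (584 to 1026) in venous, 529 (345 to 775) in arterial and 466 (428 to 508) in capillary nuclei. In normoxia libraries 1 and 2 it was lower in venous than in capillary nuclei. Tie1 was at 325 CPM (186 to 528) in arterial, 256 (149 to 410) in venous and 146 (124 to 169) in capillary nuclei. Pooled Flt1 was higher in capillary nuclei (3669 CPM, 3560 to 3781) than in arterial (2644, 2209 to 3139) or venous nuclei (2559, 2188 to 2973). The intervals leave out the spread between libraries, and this order did not hold in all of them. Arterial nuclei were above capillary nuclei in CIH library 3 and normoxia library 1. Venous nuclei were above them in CIH library 2 and normoxia library 1. The other libraries had the pooled order. The intervals of Kdr and Flt4 overlapped between all zones. Flt4 was at 40.7, 43.9 and 45.2 CPM in arterial, capillary and venous nuclei.

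**Figure D2:**
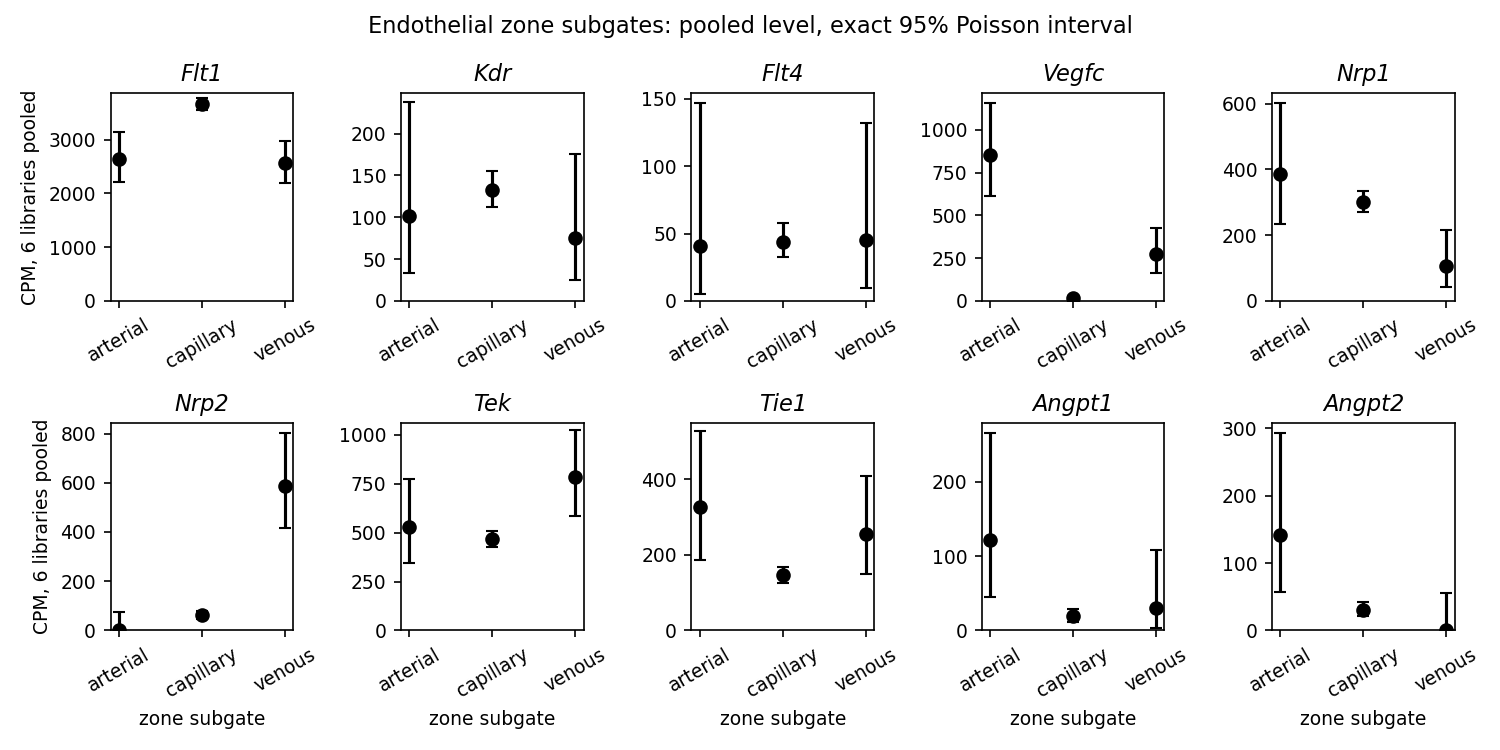
Pooled level in CPM (vertical axis, from 0) of each gene in arterial, capillary and venous endothelial nuclei; bars are exact 95% Poisson intervals and cover counting error only. Vegfc stands highest in arterial nuclei (854 CPM) and Nrp2 in venous nuclei (587 CPM).

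The neuropilins had sizeable levels in vessel, macrophage, microglial and neuronal nuclei alike. Nrp1, at chr8:128358604-128503363, was at 221 to 352 CPM in endothelial nuclei, 192 to 311 in microglia and 102 to 435 in fibroblasts. Perivascular macrophages had the highest level, 787, 1006 and 841 CPM under CIH and 1921, 1650 and 1086 CPM under normoxia, from 99 UMIs in 65 nuclei, of which 63.1% had at least 1. Oligodendrocytes (9.64 to 16.1 CPM) and oligodendrocyte precursors (0 to 49.6 CPM) were at the bottom. Endothelial nuclei and microglia, next to each other in this order, had overlapping ranges (exact sign-flip p = 0.0625, adjusted 0.197). By the contrast with the other classes Nrp1 was higher in endothelial nuclei (log2 1.95, SE 0.143), microglia (1.64, SE 0.133, adjusted p = 2.36e-15), fibroblasts (1.23, SE 0.208, 3.44e-06) and astrocytes (0.72, SE 0.161, 1.94e-04). The astrocyte call ended when mural and perivascular macrophage nuclei were added as classes (0.29, adjusted p = 0.13).

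Nrp2, at chr1:62703285-62818695, was highest in fibroblasts, at 224, 155 and 182 CPM under CIH and 145, 395 and 122 CPM under normoxia. Fibroblasts were above endothelial nuclei (73.8 to 119 CPM) in 6 of 6 libraries. Endothelial nuclei, microglia, neurons and oligodendrocyte precursors, with means of 93.8, 88.2, 75.8 and 72.2 CPM, overlapped. Astrocytes and oligodendrocytes were lower, with means of 26.1 and 23.3 CPM. The antisense gene Gm29083 overlaps 2.9% of Nrp2 and had a mean of at most 2.52 CPM in any tested class.

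Of the ligands, Angpt1 and Angpt2 had their highest tested mean in fibroblasts and Vegfc in endothelial nuclei. Angpt1, at chr15:42424723-42676977, was at 140, 114 and 168 CPM in fibroblasts of CIH and at 277, 243 and 296 CPM in those of normoxia. Astrocytes were at 95.03 to 191 CPM, oligodendrocyte precursors at 26.2 to 200 CPM and mural nuclei at 152 CPM pooled (43 UMIs, 110 to 205). Endothelial nuclei, which carry the receptor, had 20.1 CPM on average and microglia 4.19 CPM. In the class contrasts Angpt1 was higher in fibroblasts (log2 2.27, SE 0.259, adjusted p = 3.31e-10), astrocytes (2.33, SE 0.176, 3.34e-16) and oligodendrocyte precursors (1.88, SE 0.227, 1.23e-09). The ranges of fibroblasts and astrocytes, neighbours in the order of levels, overlapped, with fibroblasts higher in 5 of 6 libraries (exact sign-flip p = 0.0625), and astrocytes overlapped with oligodendrocyte precursors, the next class (higher in 3 of 6). In astrocytes Angpt1 was found in 27.9% of nuclei, and in 13.6% after thinning to 1000 UMIs, against 0.7% and 0.386% of microglia, whose library medians were 1209 to 1924.5 UMIs.

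Vegfc, at chr8:54077606-54187096, was at 96.6, 84.6 and 73.3 CPM in endothelial nuclei of CIH and at 45.4, 62.2 and 67.2 CPM in those of normoxia. Fibroblasts followed at a mean of 38.5 CPM and neurons at 21.1 CPM, and neighbours in this order overlapped. Because neurons are many, 73.3% of the 3502 Vegfc UMIs of the data lay in them and 3.51% in endothelial nuclei. Angpt2, at chr8:18690263-18741562, ranged among the tested classes from a mean of 8.74 CPM in oligodendrocytes to 45.0 CPM in fibroblasts, and had 0 UMIs in the 65 perivascular macrophages. All of Angpt2 (100% of its length) lies inside Mcph1 on the opposite strand, a gene of chromosome condensation, and the labels do not say how strand was used in counting. Mcph1 itself had means of 27.3 to 89.0 CPM by class, and across the 42 class-by-library sums its log2 level and that of Angpt2 had Pearson r = -0.04, over sums that share libraries and depth. Reads of the overlapping pair might not be separated, so Angpt2 values are uncertain.

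The same contrasts called 7 of the 9 members higher in fibroblasts, beside 17.4% of all genes. Besides Nrp1, Nrp2 and Angpt1 these were Vegfc, Angpt2, Flt1 and Kdr, which rested on 18, 28, 40 and 7 UMIs. Flt1 and Kdr could enter this test through their level in endothelial nuclei. The calls of Nrp1, Nrp2 and Angpt1 held under all 17 alternatives, while that of Flt1 ended under 6 and that of Kdr under 4 of them, and those of Angpt2 and Vegfc under 2 of 16 each. Without CIH library 1, 2 or 3 or normoxia library 1 or 3, 5 of 9 members were called there. In nuclei with 1000 or more genes and no more than 1% mitochondrial UMIs, 6 members passed the filter and 3 were called. Microglia had 2 of 9 members higher (30.9% of all genes), the neuropilins. The call of Nrp2 ended under 8 of 17 alternatives, among them without the first, the second or the third normoxia library (adjusted p = 0.058, 0.0562 and 0.236). Astrocytes had 2 higher (24.1%), oligodendrocyte precursors 1 (19.5%) and oligodendrocytes 0 (31.2%). Neurons had 4 of 9 higher, beside 34.2% of all genes. Without scaling beyond library sums the split of genes called higher and lower moved from 1536 and 1564 to 2151 and 1063 in fibroblasts, from 2128 and 2045 to 1832 and 2720 in astrocytes, and from 2754 and 2788 to 1921 and 4221 in oligodendrocytes. The numbers of members called higher in these classes stayed at 7, 2 and 0.

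Those 4 in neurons were Tek, Vegfc, Angpt2 and Nrp2. Tek was at 19.2, 19.2 and 19.2 CPM in CIH neurons and 22.3, 20.8 and 31.0 CPM in those of normoxia, and above the mean log level of the other classes (adjusted p = 1.07e-09), of which oligodendrocyte precursors held 1 Tek UMI and fibroblasts 4. Flt1 was at 2.08, 3.45 and 10.0 CPM in CIH neurons and at 1.27, 0.6 and 2.16 CPM in those of normoxia. There were 0.113 to 0.149 Tek UMIs per Flt1 UMI in the endothelial nuclei of the 6 libraries and 1.92 to 34.6 in the neurons. Of the 2091 neurons with a Tek UMI, 78.6% showed none of the 12 endothelial gate markers, compared with 87.5% of all neurons. Those 2091 neurons were deeper, at a median of 9747 against 4269 UMIs. Of the 176 neurons with a Flt1 UMI, 52.3% showed none. Tek was found in 11% of neurons (library medians of 3418 to 5503 UMIs) and 0.761% of astrocytes (2301.5 to 4085 UMIs), and in 1.96% and 0.397% after thinning to 1000 UMIs. A single UMI is 1000 CPM in a thinned nucleus, so these shares show presence, not a level per nucleus.

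Neurons were divided further by transmitter genes and granule cell markers. Granule neurons, known from the cerebellum and the cochlear nuclei, made up 19.4, 23.0 and 4.14% of nuclei under CIH and 7.22, 7.65 and 4.08% under normoxia. Vegfc was higher in granule neurons (23.1 to 79.8 CPM; log2 1.15 over the other subgates, SE 0.118, adjusted p = 3.29e-10) and in excitatory neurons with Slc17a7 (35.3 to 56.6 CPM; 1.30, SE 0.260, 3.95e-04). It was lower in glycinergic (11.3 to 16.3 CPM; -0.88, adjusted p = 3e-05), GABA (6.64 to 19.5 CPM; -0.86, 1.06e-04) and Slc17a6 neurons (9.69 to 18.5 CPM; -0.71, 4.34e-04). The Vegfc ranges of granule and Slc17a6 neurons did not overlap. Angpt1 was higher in granule neurons, at 73.4, 66.8 and 59.4 CPM under CIH and 81.2, 74.9 and 26.8 CPM under normoxia (log2 1.67, SE 0.192, adjusted p = 4.30e-09). In the other subgates its mean was 15.5 to 24.5 CPM.

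Tek and the neuropilins also differed between neuron subgates. Tek was higher in glycinergic neurons (23.4 to 38.4 CPM; log2 0.51, SE 0.139, adjusted p = 0.00654) and lower in granule neurons (12.7 to 18.4 CPM; -0.50, SE 0.152, adjusted p = 0.00758, and 0.0565 without the third normoxia library). Nrp2 was higher in GABA neurons (92.9 to 118 CPM; 0.53, SE 0.081, 3.77e-06) and lower in glycinergic (-0.42, SE 0.085, 2.62e-04) and granule neurons (-0.34, SE 0.082, 7.42e-04). Granule neurons were also lower in Nrp1 (-0.51, SE 0.126, adjusted p = 0.00122) and in the ligand Angpt2 (-0.52, SE 0.126, 0.00103). Nrp1 passed in Slc17a6 neurons (0.36, SE 0.118, adjusted p = 0.0307) and was not called there under 10 of 16 alternatives, among them the sets without CIH library 1 or 2 or any 1 normoxia library (adjusted p = 0.0543 to 0.111). Flt1 was called higher in granule neurons (1.59, SE 0.476, adjusted p = 0.00671), at 0.606 to 18.2 CPM and in 34 of 3536 nuclei, with its highest value in CIH library 3. Without that library Flt1 did not pass the count filter, so no test of it exists there. It could be tested in 12 of 16 alternatives and was called in those 12. Granule neurons thus had 3 of 7 tested members higher (21.1% of 13118 genes), Vegfc, Angpt1 and Flt1, and the other 4 lower. Slc17a7 neurons (5.21%), GABA neurons (13.1%), glycinergic neurons (12.5%) and Slc17a6 neurons (11.7%) had 1 each. The split of all genes called higher and lower moved with scaling in Slc17a6 neurons, from 1537 and 735 to 1256 and 936 without scaling, and in Slc17a7 neurons, from 684 and 759 to 832 and 573 with RLE scaling. Neurons with both Lmx1a and Eomes numbered 23 in all, and their pooled Vegfc level was 71.9 CPM (9 UMIs, exact 95% Poisson interval 32.9 to 136).

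**Figure D3:**
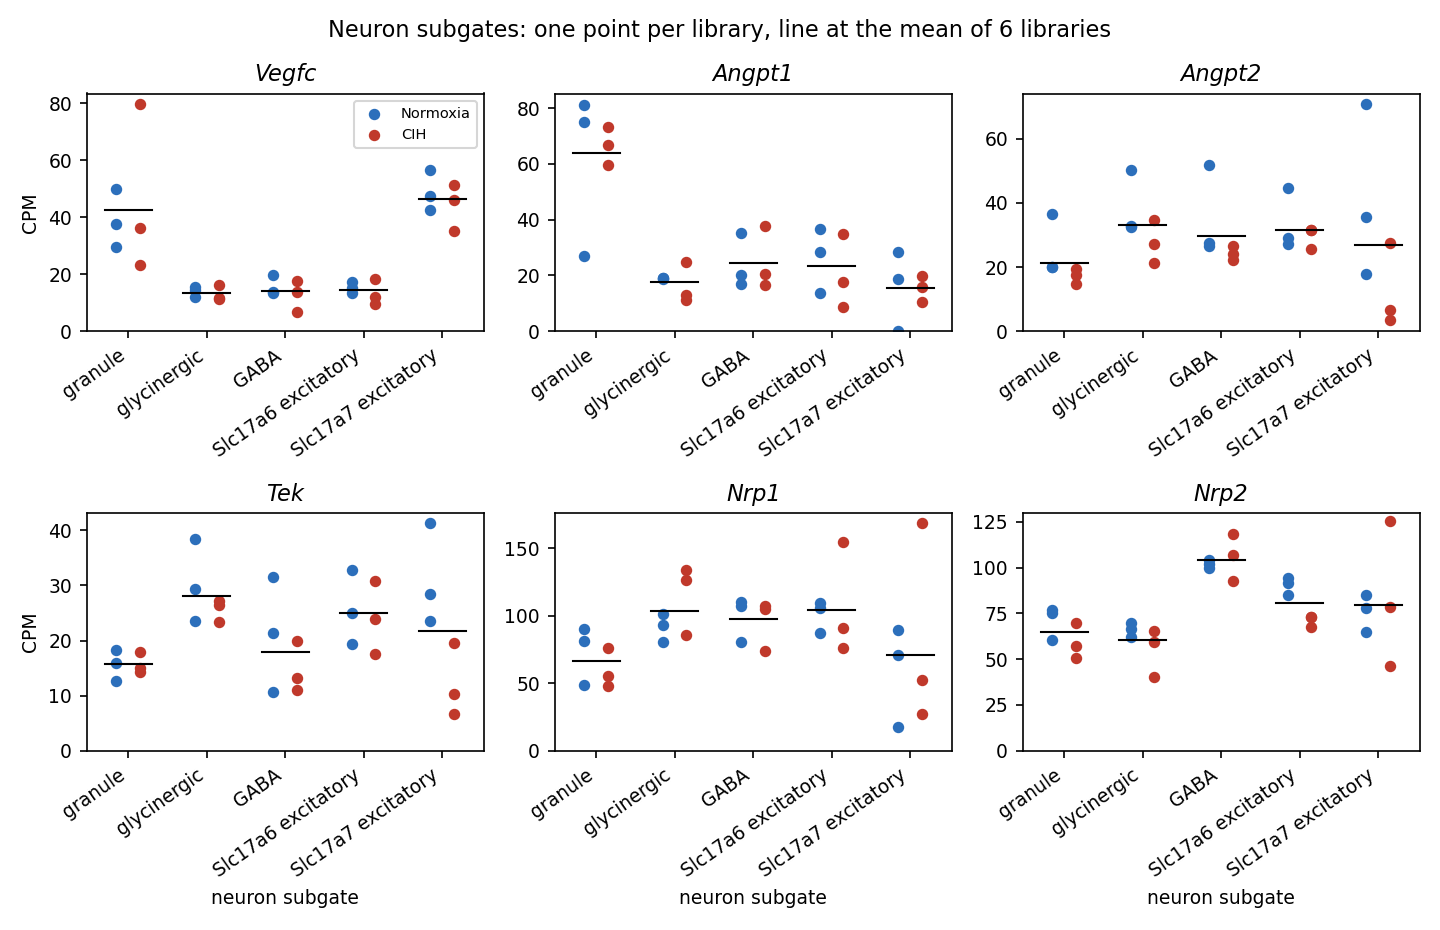
CPM (vertical axes, from 0) of 6 genes in 5 neuron subgates, 1 point per library, blue for normoxia and red for CIH, with a line at the mean of 6 libraries. Vegfc stands highest in granule and Slc17a7 neurons, and Angpt1 in granule neurons.

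By the highest Pearson correlation of log2(CPM + 1) over the 42 class-by-library sums, the profile of Tie1 was most like those of Dipk2b (r = 0.999), Flt4 (0.993) and Sox17 (0.992), an endothelial transcription factor. Flt4 was most like Tie1, Dipk2b and AU021092. Flt1 was most like Tinagl1 (0.917), the gate marker Adgrl4 (0.915) and Iigp1 (0.912), and Kdr like Iigp1, Slfn5 and She. Tek was most like Arhgef15 (0.921), Stap2 and Tead4. Nrp1 was most like Rgl1 (0.915), Dapk1 and Il15ra, Nrp2 like Sdk1 (0.87), Atp13a3 and Man2a1, and Angpt1 like Alcam (0.92), Eya1 and Cyp7b1. For Angpt2 the best matches were Nexn (0.771), Krt222 and Mitd1, and for Vegfc they were Ebf1 (0.813), Plxna2 and Col4a1. The sums share libraries and depth, and these values describe likeness only.

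The second question was whether CIH and normoxia differ in these genes. In endothelial nuclei 7 members had enough counts to test, and 0 passed, as did 0% of the 4084 genes tested there by edgeR. At an unadjusted p under 0.05 there were 374 genes, and 0 of the 7 members. DESeq2 called 5 genes and 0 members. On simulated endothelial sums 14.8% of 2-fold and 90.6% of 4-fold changes were found. These changes were placed in genes drawn at random, in which a 2-fold change would thus usually have been missed. The rate for the members themselves, whose counts differ, was not simulated.

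Flt1 was nevertheless above normoxia in all 3 CIH libraries, at 4432 ± 596.5 against 3106 ± 671 CPM (SD, n = 3; log2 fold change 0.47, SE 0.267, adjusted p = 0.641). Tie1 (193 ± 19.7 against 134 ± 20.0 CPM; 0.46, SE 0.245, adjusted p = 0.613) and Vegfc (84.8 ± 11.7 against 58.3 ± 11.4 CPM; 0.44, SE 0.321, adjusted p = 0.757) did not overlap either. Thus 3 of 7 tested members had every CIH library above every normoxia library, beside 9.79% of all genes tested in endothelial nuclei, and 0 were below (5.66%). Tek was at 548 ± 29.6 against 417 ± 128 CPM (0.37, SE 0.263), with overlap. Kdr was at 118 ± 35.9 against 176 ± 61.4 CPM (-0.70, SE 0.372, adjusted p = 0.613), with overlap. Nrp1 and Nrp2 had fitted log2 changes of -0.19 (SE 0.245) and 0.17 (SE 0.292). The median over the 7 members was 0.37, beside -0.02 over all 4084 genes.

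Other measures moved with these values. The summed level of held-out neuron markers in endothelial nuclei was 989, 3019 and 1745 CPM under CIH and 4740, 2043 and 2768 CPM under normoxia, highest in normoxia library 1, where Flt1, Tek, Tie1 and Vegfc were lowest. The median depth was 1353 to 1909 UMIs per endothelial nucleus in CIH and 1169.5 to 1479.5 in normoxia. Their part in the result was not tested. Of the held-out endothelial markers themselves, the sum was 1500, 1523 and 1075 CPM under CIH and 857, 2095 and 1439 CPM under normoxia, with overlap. Without the shared barcodes in both libraries Flt1 was at 0.50 and Kdr at -0.63. Without nuclei over 3 times the median UMIs, Tek (-0.03), Vegfc (-0.09) and Nrp2 (-0.34) changed sign.

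**Figure D4:**
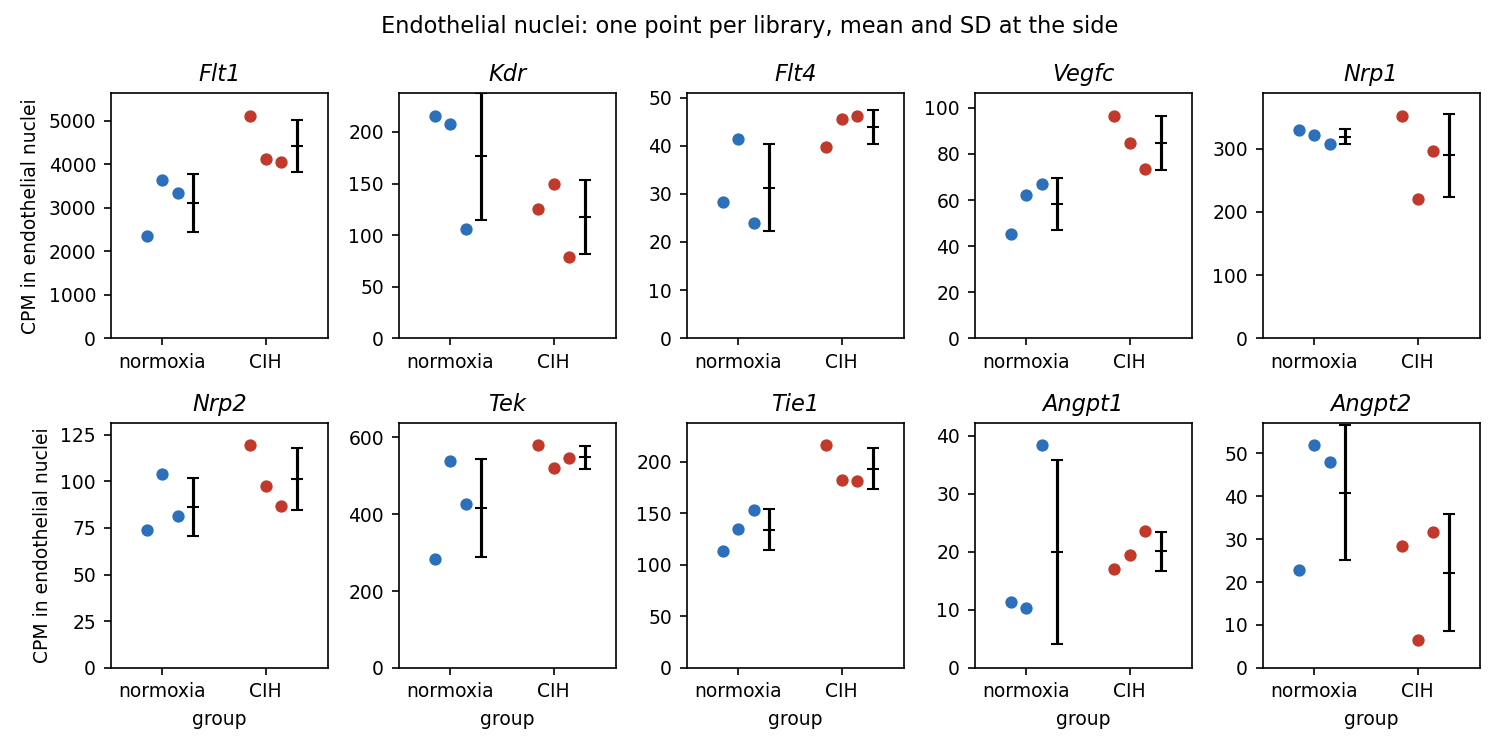
CPM in endothelial nuclei (vertical axes, from 0) for each gene, 1 point per library, with the mean and SD of 3 libraries beside the points. Flt1, Tie1 and Vegfc lie higher in all 3 CIH libraries than in any normoxia library, while Kdr and Tek overlap.

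In the sum over all nuclei Flt1 was at 37.8, 30.02 and 112 CPM under CIH and at 16.6, 12.7 and 19.6 CPM under normoxia, without overlap (log2 fold change 1.88, SE 0.503, adjusted p = 0.357). Tie1 was at 1.62, 1.42 and 4.9 CPM under CIH and 1.03, 0.515 and 0.971 CPM under normoxia (1.68, SE 0.547, adjusted p = 0.399). Tek, of which neurons held more UMIs than endothelial nuclei did in every library but CIH library 3 (393 and 484 UMIs there), was at 19.1, 19.0 and 26.3 CPM under CIH and 17.6, 18.3 and 27.1 CPM under normoxia (0.02, SE 0.216), with overlap. The share of endothelial nuclei was 2.05, 1.62 and 4.73% in CIH and 1.02, 0.65 and 1.24% in normoxia (exact permutation p = 0.1, the smallest that 3 libraries against 3 allow; adjusted 0.225). In such a sum more endothelial nuclei and more RNA per nucleus cannot be told apart. Angpt1 was at 39.9, 35.9 and 39.7 CPM under CIH and 30.7, 29.6 and 27.5 CPM under normoxia (0.39, SE 0.084, adjusted p = 0.301), and Nrp2 was lower in all 3 CIH libraries (-0.26, SE 0.094, adjusted p = 0.418). edgeR called 0 of the 10 members, beside 0.0101% of the 19790 genes tested. At an unadjusted p under 0.05 there were 4 members and 2173 genes.

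Every CIH library was above every normoxia library for 3 of the 10 (Flt1, Tie1 and Angpt1; 9.86% of all genes) and below for 1 (Nrp2; 9.19%). DESeq2 called Angpt1 (adjusted p = 0.0325) and 0 other members. Without CIH library 3 Flt1 passed in edgeR at a smaller fold change (1.03, adjusted p = 0.0386), and the number of genes called over all nuclei rose from 2 to 517. Granule neurons, in which Angpt1 is high, differed in share between the libraries as given above. In sums without them Angpt1 was at 32.3, 27.5 and 38.7 CPM under CIH and 27.8, 25.5 and 27.6 CPM under normoxia, with overlap (log2 0.27, not called). Without the shared barcodes in both libraries the values were 2.44 for Flt1, 2.10 for Tie1 and 0.52 for Angpt1, with adjusted p = 0.377 for each. Without those of normoxia library 2 alone they were 1.86, 1.65 and 0.39.

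**Figure D5:**
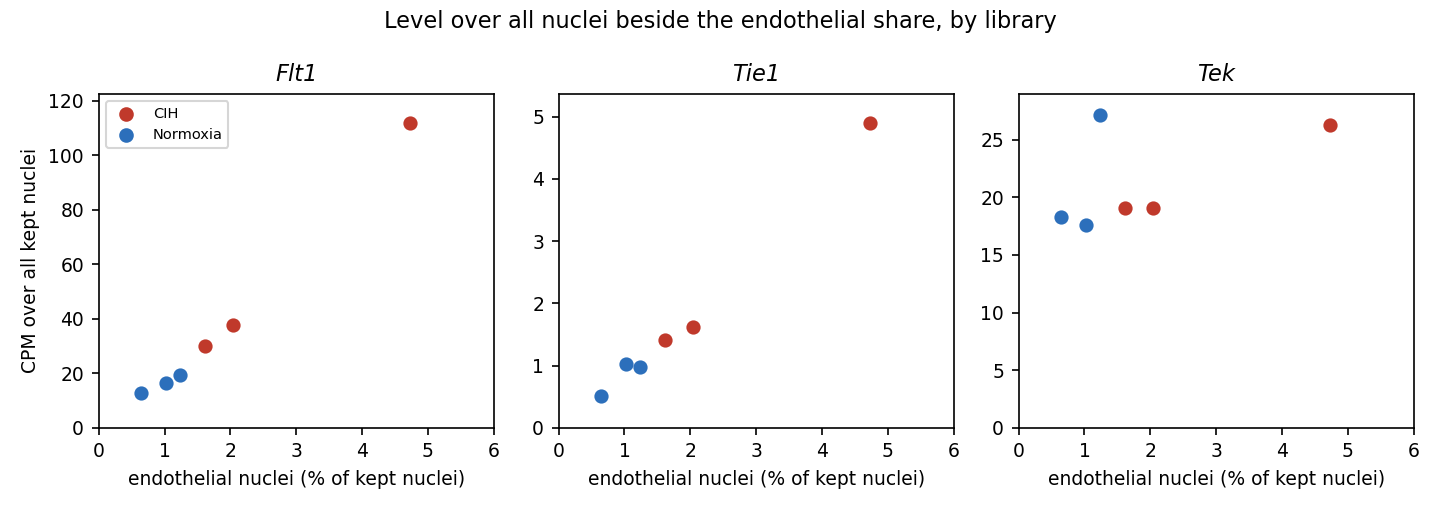
CPM over all kept nuclei (vertical axes, from 0) beside the endothelial share of nuclei in percent (horizontal axes), 1 point per library, for Flt1, Tie1 and Tek. For Flt1 and Tie1 the library with the largest share (4.73%) is also the highest, while Tek is as high in a normoxia library with 1.24%.

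In fibroblasts Angpt1 was lower in all 3 CIH libraries by the values given above (log2 fold change -0.94, SE 0.338, adjusted p = 0.78). That made 1 of 3 tested members below, beside 4.36% of all genes, with 0 above (6.02%). Nrp1 had a fitted log2 change of -0.89 (SE 0.384, adjusted p = 0.923) and Nrp2 of -0.08 (SE 0.412). Without the shared barcodes in both libraries Angpt1 was at -0.98, Nrp1 at -0.89 and Nrp2 at -0.20, and 0 passed. Fibroblasts made up 0.856 ± 0.084% of nuclei in CIH and 0.392 ± 0.188% in normoxia (SD, n = 3; difference 0.465 percentage points, exact permutation p = 0.1, adjusted 0.225), from 15 to 99 nuclei per library, and 0% of 1926 genes passed (88 at an unadjusted p under 0.05; 0 by DESeq2).

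In microglia both neuropilins were lower in every CIH library than in any normoxia library. Nrp1 was at 262, 224 and 192 CPM under CIH and 311, 290 and 296 CPM under normoxia (log2 fold change -0.42, SE 0.151, adjusted p = 0.999). Nrp2 was at 62.6, 64.4 and 71.1 CPM under CIH and 102, 102 and 126 CPM under normoxia (-0.75, SE 0.223, adjusted p = 0.999). Without the shared barcodes in both libraries the changes were -0.39 and -0.74. These were 2 of 2 tested members below, beside 4.86% of all genes, with 0 above (5.42%). Of 6086 genes 0% passed in edgeR, 240 had an unadjusted p under 0.05, and DESeq2 called 0. Perivascular macrophages had 4 to 19 nuclei per library and were not tested. Nrp1 there, from 99 UMIs in 65 nuclei, was lower in each CIH library. The share of all genes that lay below in that class was not counted.

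Among neurons Flt1 was at the low levels given above, with a fitted log2 change of 1.92 (SE 0.645, adjusted p = 0.279), with overlap of the groups, and DESeq2 called it (1.95, adjusted p = 0.0351). In the same libraries Flt1 in oligodendrocytes was at 4.46, 4.93 and 11.6 CPM under CIH and 0.536, 2.49 and 4.02 CPM under normoxia (1.59, SE 0.567, adjusted p = 0.795). Both were highest in CIH library 3, the library with most endothelial nuclei and with an all-nuclei Flt1 level of 112 CPM. Whether Flt1 RNA of endothelial nuclei in other droplets has a part in these values was not tested. Tek in neurons was lower in all 3 CIH libraries (-0.38, SE 0.163, adjusted p = 0.371), which was 1 of 8 tested members below, beside 9.44% of genes, with 0 above (9.8%). Without CIH library 3, Nrp1 (-0.43, adjusted p = 0.0273) and Angpt1 (0.50, adjusted p = 0.0141) passed in neurons, and 949 genes were called instead of 0. With all libraries 0% of 17964 genes passed in neurons, 2411 had an unadjusted p under 0.05, and DESeq2 called 302. Without the shared barcodes in both libraries Angpt1 in neurons was at 0.73 (adjusted p = 0.453) in place of 0.33, and Tek at -0.51.

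Oligodendrocytes had 7 members tested, of which Flt1 was above (6.2% of genes) and Nrp2 below (19.7, 18.4 and 22.5 against 26.6, 25.4 and 27.3 CPM; -0.39, SE 0.132, adjusted p = 0.752; 5.77% of genes). Without the shared barcodes in both libraries Flt1 was at 1.57 and Nrp2 at -0.40. In this class alone every same-numbered pair of libraries correlated above 0.1 in its deviations (0.141, 0.173 and 0.413). CIH library 2 and normoxia library 1, which differ in number, were at 0.233 here. Same-numbered pairs were also positive in microglia (0.098, 0.149 and 0.332) and neurons (0.075, 0.149 and 0.284). With a replicate block edgeR called 38 genes and 0 members there, Flt1 at 1.58 (adjusted p = 0.121) and Nrp2 at -0.39 (0.331). Astrocytes had 2 tested, Nrp1 (0.06, SE 0.262) and Angpt1 (-0.03, SE 0.253), both with overlap, so 0 lay above (5.19% of genes) and 0 below (5.19%). Both changed sign under several settings. Oligodendrocyte precursors had 1, Angpt1 (-0.14, SE 0.402). In each of these classes 0% of genes passed in edgeR, out of 13838, 4277 and 2601 tested, with 793, 250 and 121 at an unadjusted p under 0.05. DESeq2 called 18 genes in oligodendrocytes and 0 in astrocytes and precursors, none of them a member. Flt1 in astrocytes was removed by the filter. Normoxia library 2 stood at 107 CPM from 2 of its 84 astrocyte nuclei, while the other libraries had 0 to 6.08 CPM.

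Of the 35 further genes of the pathway list (other ligands, semaphorins, plexins, Vegfc processing and downstream genes), 19 could be tested between classes and 11 were higher in endothelial nuclei, beside the 25.9% of all genes given above. These genes, too, could pass the count filter by their level in endothelial nuclei alone. Examples chosen after their values were seen are Ptprb (1194 CPM pooled), a phosphatase that acts on Tek, Sema3c (849 CPM), a neuropilin ligand, and Klf2 (366 CPM), a flow-responsive factor. Vegfa, the main ligand of Flt1 and Kdr, was lower there (17.1 CPM) and highest in astrocytes (239 CPM), which also carried Angpt1. Between CIH and normoxia edgeR called 0 of 34 pathway genes in all nuclei and 0 of 10 in endothelial nuclei. Over all nuclei DESeq2 called 4 of the 34, all higher under CIH: Klf2 (log2 fold change 1.66, adjusted p = 3.08e-04), Ptprb (1.21, 0.00627), Sema3g (2.05, 0.0382) and Svep1 (1.20, 0.044). Without CIH library 3 edgeR called 3 of them, Klf2, Ptprb and Svep1, and in neurons 4 of 30 (Svep1, Prox1 and Sema3f higher, Sema3c lower). In the class contrasts Klf2 (log2 7.19) and Ptprb (8.63) were higher in endothelial nuclei, Svep1 (-1.37) was lower, and Sema3g was not tested. The endothelial share of nuclei, given above, was higher in all 3 CIH libraries. Its part in the calls over all nuclei was not tested. The 4 of smallest p in endothelial nuclei were Plxna4, Plxna2, Notch4 and Ptprb. Plxna4, a plexin that signals for neuropilins, was at 193, 143 and 207 CPM under CIH and 306, 280 and 297 CPM under normoxia, without overlap (log2 fold change -0.74, SE 0.238, adjusted p = 0.41). Neurons carry Plxna4 at 466 CPM, and in the class contrasts it was higher in microglia (log2 2.58) as well as in neurons (2.16). The neuron marker sums of the endothelial nuclei, given above, overlapped between the groups. Whether RNA of other classes has a part in the Plxna4 difference was not tested. For Plxna2 (0.51, SE 0.279), the endothelial receptor Notch4 (0.62) and Ptprb (0.42, SE 0.303) the groups overlapped.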

How the data were processed

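Nuclei of 6 libraries (3 CIH, 3 normoxia) were counted. The deposited values are raw UMI counts per gene and nucleus: Cell Ranger 6.1.2 made the filtered matrices per the file headers, while the submitters' processing notes name Cell Ranger 3.1.0, Seurat 4.0 and mm10. How strand and introns were counted is not given in the sources used here. The 10 members and all gene lists were chosen with earlier results of these data known.

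Nuclei with 500 or more genes and no more than 5% mitochondrial UMIs were kept (26542300 to 46348273 UMIs per library). A nucleus joined the class with most distinct gate markers if it had 3 or more and 2 more than any other class. Mixed (2988) and ungated (1961) nuclei entered the sums over all nuclei only, and no doublet caller was run. UMIs were summed per class and library. CIH was compared with normoxia, and each class with the mean of the other classes (library as a term), by edgeR 4.0.16 quasi-likelihood tests with TMM scaling, filterByExpr and Benjamini-Hochberg adjustment over all genes at 0.05, in classes with 10 or more nuclei in every library. Low counts removed 3 members from the endothelial test. DESeq2 1.42.0 was an alternative. Neighbouring classes were compared by 2-sided exact sign-flip tests and shares of nuclei by 2-sided exact permutation tests (scipy 1.17.1). Replicate numbers are shared between groups, but no label says that they pair libraries, and the tests have no block. Every same-numbered pair correlated above 0.1 in oligodendrocytes (0.141, 0.173 and 0.413) and in no other class or over all nuclei (0.039, 0.184 and 0.203), so blocked values stand beside the oligodendrocyte results. The edgeR step was tested on simulated data of the same depth, where 5 of 95 endothelial calls were false (3790 genes).

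Members were named because they are the list. Pathway genes were named when called or, with 0 called, as the 4 of smallest p in endothelial nuclei, and likeness as the 3 highest correlations. Promoters and annotation come from RefSeq (GRCm38.p6) and GENCODE M21, in which 32235 gene IDs matched.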

Additional observations from a re-analysis of the deposited data

Results flagged for a closer look

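Nuclei that met no class gate were in no comparison by class, but they held Flt1. Its level there was 51.6, 45.6 and 59.1 CPM in the CIH libraries (mean 52.11 CPM) and 24.3, 19.6 and 24.9 CPM in the normoxia libraries, so every CIH library lay above every normoxia library. The difference was not tested, and the share of all genes that lay above in ungated nuclei was not counted. CIH library 3 gave 972 of the 1961 ungated nuclei. Ungated nuclei held 1.38% of all Flt1 UMIs (113 of 8179). In the same libraries the endothelial share of nuclei was 1.62 to 4.73% under CIH and 0.65 to 1.24% under normoxia.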

How the results depend on the processing

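Values of single members kept their direction and side of the threshold in 885 instances, lost a call in 43, gained one in 2 and changed sign in 13, not counting left-out libraries. With a library left out these numbers were 489, 42, 3 and 10. In the order all nuclei, endothelial, fibroblast, astrocyte, oligodendrocyte precursor, oligodendrocyte, microglia and neuron, the genes called between CIH and normoxia were 2, 0, 0, 0, 0, 0, 0 and 0. DESeq2 called 225, 5, 0, 0, 0, 18, 0 and 302, of which 1 member over all nuclei and 1 in neurons. Without the filter on low counts edgeR called 5, 72, 2, 25, 7, 24, 18 and 10, of which 1 member (Flt1 in astrocytes). Over all nuclei it called 1 gene in nuclei with 1000 or more genes and no more than 1% mitochondrial UMIs (the stricter nuclei), 0 without nuclei over 3 times the median UMIs, 1 without the shared barcodes of normoxia library 2, 0 without those in both libraries, and 4 without granule neurons. A gate margin of 1 gave 1 gene in endothelial nuclei. In oligodendrocytes a margin of 3, the removal of nuclei of high UMIs and the removal of shared barcodes in both libraries gave 1 gene each, and the last gave 1 in astrocytes.

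The replicate numbers do not pair the libraries by the labels. With a replicate block edgeR called 0 genes over all nuclei, 0 in endothelial nuclei, 3 in astrocytes, 38 in oligodendrocytes, 14 in microglia and 145 in neurons, and 0 members. Same-numbered libraries had correlations of 0.039, 0.184 and 0.203 over all nuclei and of -0.265, -0.016 and 0.162 in endothelial nuclei, and were above 0.1 in every pair in oligodendrocytes only.

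With 1 library left out, calls ranged from 0 to 517 over all nuclei (517 without CIH library 3; members 0 to 1), 0 to 4 in endothelial nuclei, 0 to 5 in astrocytes, 0 to 1 in oligodendrocyte precursors, 0 to 5 in oligodendrocytes, 0 to 1 in microglia and 0 to 949 in neurons (949 without CIH library 3; members 0 to 2). Members called higher ranged from 5 to 7 in fibroblasts, 1 to 2 in oligodendrocyte precursors and microglia, 1 to 3 in glycinergic neurons and 0 to 1 in Slc17a6 neurons.

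Between classes, the stricter filter on nuclei lowered the genes called higher from 2286 to 1242 in endothelial nuclei and from 1536 to 1008 in fibroblasts, with 3 of 6 tested members in place of 7 of 9. Without the count filter they rose to 3371 in astrocytes, 6291 in oligodendrocytes and 8827 in neurons. With mural and perivascular macrophage classes, 1 member was higher in astrocytes and 2 in oligodendrocyte precursors. Microglia had 1 in place of 2 with RLE scaling, no count filter, the stricter nuclei, a margin of 1 or a minimum of 4 markers. Glycinergic neurons had 3 without the count filter and 2 with a margin of 3 or without shared barcodes in both libraries. Slc17a6 neurons had 0 with RLE, no scaling, the stricter nuclei, a margin of 1 or without shared barcodes in both libraries. Slc17a7 neurons had 360 genes in place of 684 without nuclei of high UMIs. The fibroblast share difference of 0.465 percentage points became 0.628 with a margin of 1, 0.232 with a margin of 3 and 0.708 among gated nuclei without granule neurons.

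The sign of a CIH log2 change turned for these members. Over all nuclei, Tek was -0.20 in the stricter nuclei, and -0.17, -0.10 and -0.08 without CIH 3, normoxia 1 and normoxia 2 (range with a library left out -0.17 to 0.26). Vegfc was -0.031 without granule neurons. In endothelial nuclei without those of high UMIs, Nrp2 was -0.34, Tek -0.032 and Vegfc -0.093. In fibroblasts Nrp2 was 0.10 without the count filter, 0.071 with a margin of 1, 0.32 without nuclei of high UMIs and 0.44 without normoxia 2 (range -0.35 to 0.44). In astrocytes Nrp1 was -0.015 without shared barcodes in both libraries, -0.18 without CIH 2 and -0.07 without normoxia 1 (range -0.18 to 0.37). Angpt1 there was 0.000944 without the count filter, 0.015 in the stricter nuclei, 0.0355 with a margin of 1, 0.16 with a margin of 3, and 0.05, 0.15 and 0.10 without CIH 1, CIH 2 and normoxia 3 (range -0.49 to 0.15). In neurons Flt4 was -0.046 without normoxia 1 (range -0.046 to 0.75). The causes were not tested. The alternatives without shared barcodes and with added classes were chosen after seeing the data.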
